A study of Mus musculus with 22 samples.

Results

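Hddc3, Wdfy1, Scg5, Gabra2, Abhd1, Pttg1, Fcho1, Eya2, Ocel1 and Zfp605 are 10 of the 13685 genes in a Drop-seq count table of mouse hippocampus. They were chosen by their measured counts, which in the rTta animals stood far from those of the other groups in many cell classes. Every contrast with the rTta animals was therefore used in the choice, and its values are given below as a description, without a test. Drop-seq pairs each cell with a barcoded bead in a droplet, so that the 3′ ends of its transcripts can be traced back to it after sequencing. The 22 animals fall into 6 groups that share 1 strain label, Fvb/B6. They were 3 old rTta animals (33 weeks), 3 old P301L animals (41, 41 and 48 weeks), 4 old rTg4510 animals (32, 35, 37 and 38 weeks), 5 old wild-type (WT) animals (32, 35, 39, 39 and 40 weeks), 3 young rTg4510 animals (4, 5 and 5 weeks) and 4 young WT animals (5, 5, 6 and 6 weeks). Ages are those of the sample labels; the upper end of the young range in the series design is below most of the young ages labelled. The rTg4510 line combines a human tau transgene carrying the P301L mutation with a tetracycline transactivator driven by the Camk2a promoter, which is active in forebrain excitatory neurons. The names of the rTta and P301L groups point to the transactivator alone and the tau responder alone, although no label states this. The WT animals were littermates negative for both transgenes per the series design.

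The genes have little in common by textbook function. Gabra2 encodes the alpha2 subunit of the GABA-A receptor, a chloride channel of inhibitory synapses. Scg5 encodes 7B2, a chaperone that keeps prohormone convertase PC2 inactive until it reaches the secretory granule. Pttg1 is securin, which holds separase in check until sister chromatids part. Fcho1 is an F-BAR protein of early clathrin-coated pits, and Wdfy1 carries a FYVE domain that binds phosphoinositide on endosomes. Eya2 is a transcriptional coactivator with phosphatase activity that works with Six-family homeobox factors. Hddc3 is an HD-domain hydrolase related to bacterial enzymes that break down the alarmone ppGpp, Abhd1 an alpha/beta hydrolase fold protein, Ocel1 an occludin/ELL domain protein and Zfp605 a zinc-finger protein.

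The genes lie on 6 autosomes of the mouse genome (build GRCm38, which is mm10), by the GENCODE vM21 annotation. Wdfy1 lies on chromosome 1 (79702262 to 79776143, minus strand), Scg5 on chromosome 2 (113776362 to 113829121, minus strand) and Eya2 on chromosome 2 (165595032 to 165771727, plus strand). Abhd1 (30950066 to 30955091, plus strand), Gabra2 (70957597 to 71095849, minus strand) and Zfp605 (110110092 to 110129794, plus strand) lie far apart on chromosome 5. Hddc3 lies on chromosome 7 (80343104 to 80350547, plus strand) and Pttg1 on chromosome 11 (43420250 to 43426251, minus strand). Ocel1 (71371298 to 71379361, plus strand) and Fcho1 (71708387 to 71725716, minus strand) share a region of chromosome 8. Protein-coding genes in the count table overlap 4 of the 10 on the opposite strand, namely Man2a2 for Hddc3, Mrpl44 for Wdfy1, Preb for Abhd1 and Nr2f6 for Ocel1. Whether counting used strand is not given in the sources used here, so reads of these pairs may not be separated.

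RefSeq promoter windows, the 250 bases before a transcription start, were at hand for 7 of the 10 genes. They are shown for Hddc3 (chr7:80342887-80343136, plus strand), Pttg1 (chr11:43425982-43426231, minus strand), Fcho1 (chr8:71725682-71725931, minus strand) and Ocel1 (chr8:71371048-71371297, plus strand), all GRCm38.p6. Hddc3 was among the genes lower in the rTta animals in most classes, Pttg1 was the only one of the 10 that was higher, and Fcho1 and Ocel1 share a chromosome region. Capitals mark 3 motifs on either strand: the CCAAT box, the GC box GGGCGG, and, for the TATA box, the letters TATAAA. The letters run 5′ to 3′ on the gene's strand.
Hddc3: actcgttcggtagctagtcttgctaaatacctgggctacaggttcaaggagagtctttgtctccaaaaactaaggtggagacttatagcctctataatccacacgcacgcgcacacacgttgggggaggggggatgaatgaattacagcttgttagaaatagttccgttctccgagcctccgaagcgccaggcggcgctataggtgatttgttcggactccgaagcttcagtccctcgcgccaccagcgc
Pttg1: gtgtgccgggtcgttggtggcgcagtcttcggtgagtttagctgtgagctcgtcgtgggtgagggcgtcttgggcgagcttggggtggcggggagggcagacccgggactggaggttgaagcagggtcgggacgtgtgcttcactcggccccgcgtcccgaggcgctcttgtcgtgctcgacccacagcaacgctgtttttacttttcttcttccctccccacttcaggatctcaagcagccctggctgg
Fcho1: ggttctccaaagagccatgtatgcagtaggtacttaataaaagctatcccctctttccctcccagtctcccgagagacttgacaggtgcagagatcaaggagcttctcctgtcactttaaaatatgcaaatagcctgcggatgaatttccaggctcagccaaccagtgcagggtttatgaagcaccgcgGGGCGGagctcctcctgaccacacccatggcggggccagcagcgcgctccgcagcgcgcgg
Ocel1: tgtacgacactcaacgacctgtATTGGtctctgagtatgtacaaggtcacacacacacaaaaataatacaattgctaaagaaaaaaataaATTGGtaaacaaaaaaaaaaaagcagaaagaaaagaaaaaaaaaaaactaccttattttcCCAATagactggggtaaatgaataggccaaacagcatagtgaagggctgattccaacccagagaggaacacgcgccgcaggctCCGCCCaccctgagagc
The Ocel1 window held 3 CCAAT and 1 GGGCGG matches and the Fcho1 window 1 GGGCGG match, while the Hddc3 and Pttg1 windows held none of the motifs. Over the 7 windows, CCAAT was found in 2 (Gabra2 and Ocel1), GGGCGG in 4 (Scg5, Gabra2, Ocel1 and Fcho1) and TATAAA in 0. Of all 32851 promoter windows of the same length, 33.8% held CCAAT, 32.7% GGGCGG and 12.4% TATAAA. The windows held 17 CG pairs for Hddc3, 20 for Pttg1, 12 for Fcho1 and 6 for Ocel1, and the median of all windows was 6. The windows of Hddc3 and Pttg1 had the same motif count of 0. By the GENCODE positions the Pttg1 window lies inside the gene, and those of Scg5, Hddc3 and Fcho1 run partly into their genes. Whether motifs before the GENCODE starts set Pttg1 apart from the genes that were lower was not tested.

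The animals' total counts lay between 780831 and 6039656, and 27198 barcodes with at least 300 counts were kept. The table joins 2 parts: 801 genes were counted in the P301L and rTta animals and in none of the other 16, and 270 genes showed the opposite pattern. The P301L and rTta animals are in 1 part and all others in the other, so differences of either group from WT or rTg4510 cannot be told apart from differences between the parts, whereas rTta against P301L lies within a part. All values below use the 12614 genes counted in every animal. In excitatory neurons, Mapt, which encodes tau, stood at 1579 to 2315 counts per 1000000 counts (CPM) in old rTg4510 and 1249 to 1532 in young rTg4510 animals, against 448 to 610 in rTta, 477 to 499 in P301L, 436 to 581 in old WT and 416 to 544 in young WT animals. Wdr60, a gene at the known insertion site of the transactivator, stood there at 29.1 to 59.6 CPM in rTta, 43.2 to 86.6 in old rTg4510 and 52.2 to 66.4 in young rTg4510 animals, against 71.5 to 168 in P301L, 72.6 to 216 in old WT and 112 to 215 in young WT animals. For Wdr60 the rTta and old WT ranges did not overlap, while those of old rTg4510 and old WT did.

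Cell barcodes were shared between the libraries of old rTta replicate 3 and old P301L replicate 3. They held 184 of their 1600 barcodes in common, while no other pair of libraries shared more than 6. Of these barcodes, 176 were kept in both. The expression profiles of the same barcode in the 2 libraries had a median Pearson correlation of 0.81 (lowest 0.55), against a median of 0.13 (highest 0.39) when a barcode was set beside the next one on the list. Median counts per shared barcode were 779 in rTta replicate 3 and 864 in P301L replicate 3. The shared barcodes of P301L replicate 3 had the member levels of the rTta animals: Pttg1 stood at 27 counts (123 CPM), Hddc3 at 2 counts (9.13 CPM), and Eya2, Ocel1 and Zfp605 at 0 of 219063 counts, which allows each up to 3 counts. Its other 636 kept barcodes had 25.5 CPM of Pttg1, 74.6 of Hddc3, 33.4 of Eya2, 43.2 of Ocel1 and 33.4 of Zfp605. The main results that turn on either library are also given without the shared barcodes. In old rTg4510 replicate 3, 544 of 1599 kept cells fell into 1 unnamed cluster led by genes such as Igfbp2, Prlr, Kl and Enpp2. The other 3 old rTg4510 animals had 0 cells in it. Young WT replicate 3 had 182, young rTg4510 replicate 3 had 101, old WT replicate 4 had 60 and young rTg4510 replicate 2 had 51. Every other animal had 6 or fewer. The part of this cluster in the all-cell levels was not tested.

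**Figure D1:**
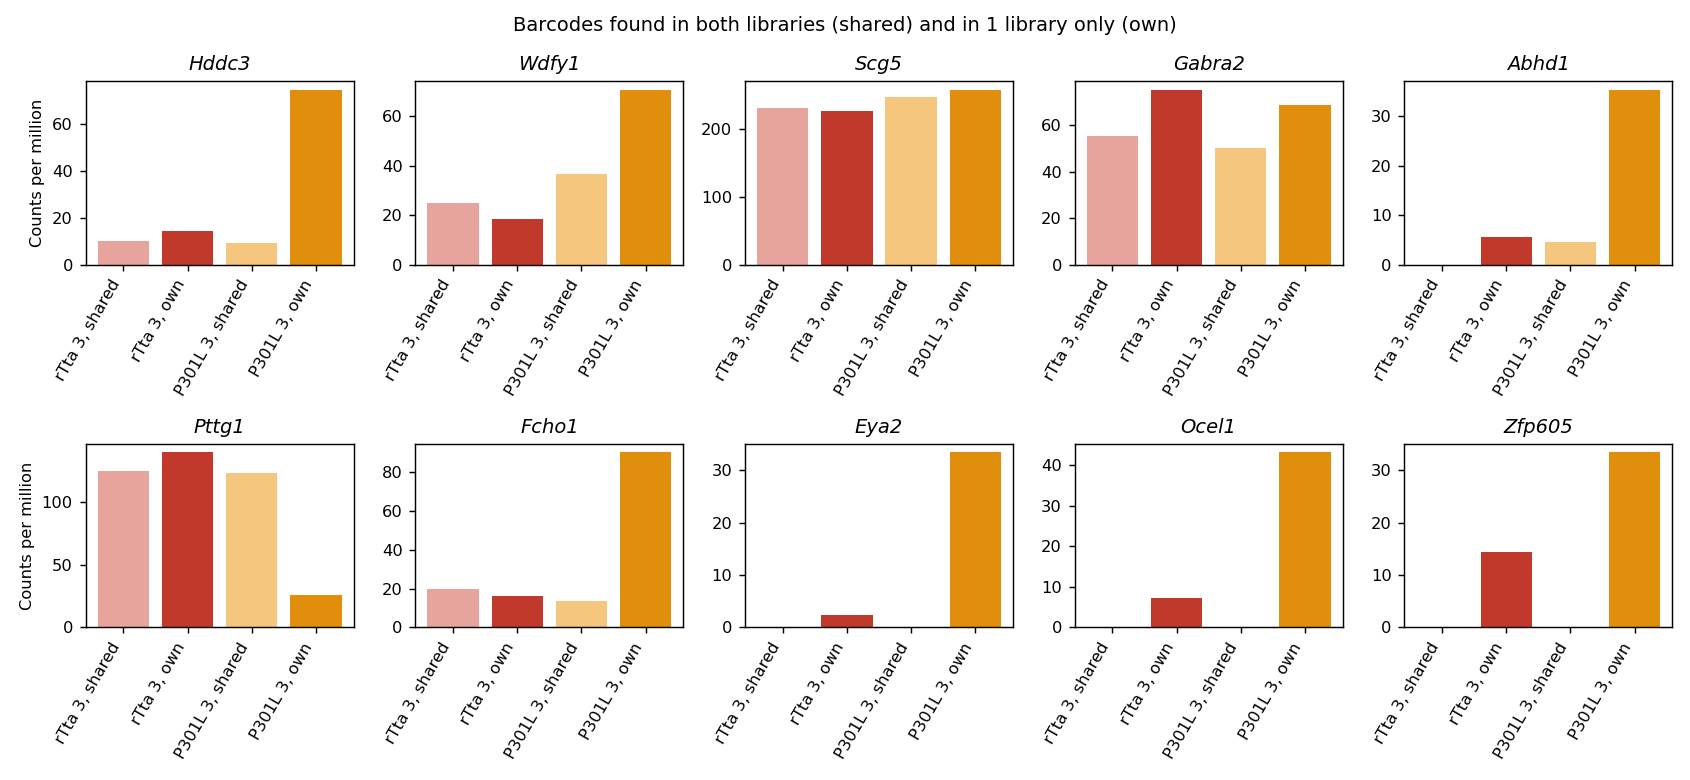
CPM (vertical axes) of the 10 genes in the barcodes that old rTta replicate 3 and old P301L replicate 3 share and in those each library has alone; each bar is 1 sum over barcodes, with no replicate. In P301L replicate 3, Pttg1 stood at 123 CPM in the shared and 25.5 CPM in its own barcodes, and Hddc3 at 9.13 and 74.6 CPM.

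Securin (Pttg1) was the only one of the 10 genes with more counts in the rTta animals. Summed over all kept cells, it stood at 125, 112 and 138 CPM in rTta animals, 13.3, 12.6 and 54.9 CPM in P301L animals, 13.0, 14.0, 8.004 and 15.7 CPM in old rTg4510 animals and 13.3, 3.85, 10.7, 13.5 and 6.65 CPM in old WT animals. Every rTta animal was above every other animal. Young animals spanned 10.7 to 38.7 CPM (rTg4510) and 7.09 to 17.4 CPM (WT). The highest of the 19 other animals was P301L replicate 3, which stood at 25.5 CPM without the shared barcodes. The log2 difference of the rTta animals was 3.55 ± 0.44 (edgeR estimate ± standard error, SE) against old WT and 2.28 ± 0.50 against P301L. Without the shared barcodes these were 3.55 ± 0.37 and 2.95 ± 0.44.

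Hddc3, the HD-domain hydrolase, was low in the rTta animals alone. Its level was 8.36, 12.1 and 13.8 CPM in rTta animals, 51.6, 52.5 and 54.9 CPM in P301L animals, 62.0, 63.8, 89.7 and 52.1 CPM in old rTg4510 animals and 51.3, 67.9, 96.7, 73.3 and 54.7 CPM in old WT animals. The ranges of the rTta animals and of all others did not touch, as the lowest young animal had 40.4 CPM. Wdfy1, the endosomal FYVE protein, had 21.9, 22.3 and 19.3 CPM in rTta animals, 57.9, 63.1 and 60.4 CPM in P301L animals, 57.3, 83.2, 82.0 and 54.4 CPM in old rTg4510 animals and 67.1, 53.8, 64.5, 88.6 and 70.9 CPM in old WT animals. It was likewise separated from all 19 other animals. The log2 differences of the rTta animals from old WT were -2.66 ± 0.33 for Hddc3 and -1.77 ± 0.23 for Wdfy1, and from P301L -2.24 ± 0.35 and -1.53 ± 0.25.

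Abhd1, Eya2 and Ocel1 were close to absent in the rTta animals. Abhd1 had 5, 4 and 7 counts (2.61, 2.55 and 4.82 CPM) in rTta animals, against 34.4, 33.2 and 26.1 CPM in P301L animals, 30.2, 22.5, 47.4 and 13.4 CPM in old rTg4510 animals and 24.4, 30.8, 29.3, 48.6 and 22.2 CPM in old WT animals. Eya2 had 2, 3 and 3 counts (1.04, 1.92 and 2.07 CPM) in rTta animals, against 22.7, 15.3 and 23.3 CPM in P301L animals, 4.69, 11.4, 3.34 and 7.84 CPM in old rTg4510 animals and 9.84, 29.5, 36.2, 22.9 and 5.91 CPM in old WT animals. Here the gap to the nearest animal, old rTg4510 replicate 3 at 3.34 CPM, was narrow; inside oligodendrocytes that animal had 59.3 CPM. Ocel1 had 10, 2 and 9 counts (5.22, 1.28 and 6.2005 CPM) in rTta animals, against 25.03, 39.2 and 30.2 CPM in P301L animals, 40.6, 37.5, 38.4 and 13.4 CPM in old rTg4510 animals and 31.2, 26.9, 29.3, 44.1 and 15.5 CPM in old WT animals. For all 3 genes every rTta animal was below all 19 others. The log2 differences from old WT were -3.30 ± 0.48 for Abhd1, -3.66 ± 0.76 for Eya2 and -2.87 ± 0.50 for Ocel1. Those from P301L were -3.26 ± 0.51, -3.60 ± 0.81 and -2.90 ± 0.54.

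Zfp605, the zinc-finger gene, had 17.2, 15.3 and 12.4 CPM in rTta animals, 43.8, 39.2 and 23.3 CPM in P301L animals, 49.5, 43.4, 37.5 and 65.5 CPM in old rTg4510 animals and 49.2, 32.1, 41.0, 44.98 and 53.9 CPM in old WT animals. It also separated the rTta animals from all 19 others, and its nearest value, that of P301L replicate 3, was 33.4 CPM without the shared barcodes. Fcho1, the clathrin-pit protein, had 26.1, 28.1 and 16.5 CPM in rTta animals, 87.6, 99.7 and 67.2 CPM in P301L animals, 56.8, 55.3, 23.8 and 46.1 CPM in old rTg4510 animals and 69.3, 62.8, 84.0, 58.9 and 42.1 CPM in old WT animals. Old rTg4510 replicate 3, the animal with the most cells in that unnamed cluster, lay among the rTta animals for Fcho1 over all cells, and at 183 CPM in oligodendrocytes. The log2 difference of the rTta animals from old WT was -1.63 ± 0.24 for Zfp605 and -1.49 ± 0.27 for Fcho1.

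Scg5 and Gabra2 separated the rTta animals from WT and rTg4510 but not from P301L. Scg5 had 268, 212 and 226 CPM in rTta animals, 497, 361 and 254 CPM in P301L animals, 562, 715, 1017 and 744 CPM in old rTg4510 animals and 520, 759, 1056, 768 and 572 CPM in old WT animals. Gabra2 had 88.8, 74.0 and 72.3 CPM in rTta animals, 207, 134 and 63.1 CPM in P301L animals, 166, 164, 91.2 and 286 CPM in old rTg4510 animals and 281, 199, 214, 195 and 332 CPM in old WT animals. P301L replicate 3 overlapped the rTta animals in both genes, and it still did so from its own barcodes alone, with 257 CPM of Scg5 and 68.7 CPM of Gabra2. The log2 differences of the rTta animals were -1.72 ± 0.33 for Scg5 and -1.70 ± 0.33 for Gabra2 against old WT, and -0.67 ± 0.35 and -0.79 ± 0.35 against P301L. For both genes the difference was smaller against P301L, which is in the same part of the table, than against WT; the difference between these was not tested.

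Over all cells, the 3 rTta animals were below all 19 others for 6 of the 10 genes (Hddc3, Wdfy1, Abhd1, Eya2, Ocel1 and Zfp605) and above them for Pttg1. Among all 12414 genes tested, 0.282% were below and 0.604% above in that way. Against old WT animals alone, the rTta animals were below for 9 of the 10 genes and above for 1, where 1.83% and 5.28% of all genes were. Against P301L animals they were below for 7 and above for 1 (all genes 11.3% and 12.1%), and against old rTg4510 animals below for 8 and above for 1 (all genes 3.78% and 9.92%). The choice of the genes used these contrasts, so nothing is read from the counts. Without the shared barcodes, the log2 differences of the rTta animals from P301L were -2.38 for Hddc3, -1.62 for Wdfy1, -0.68 for Scg5, -0.81 for Gabra2 and -3.31 for Abhd1. They were -1.99 for Fcho1, -3.72 for Eya2, -2.99 for Ocel1 and -1.34 for Zfp605. Across all genes, edgeR's quasi-likelihood test called 25 genes (0.201%) between rTta and old WT, 16 (0.129%) between rTta and P301L and 43 (0.346%) between rTta and old rTg4510 at an adjusted p under 0.05. Without the shared barcodes the second count was 50, and without P301L replicate 3 it was 22. Old rTg4510 animals overlapped the rTta animals for Fcho1 alone among the 10 genes. The shares of all genes for that contrast are given above, and the choice of the genes used it too. In sums over all cells, fewer cells of a type and less RNA per cell cannot be told apart.

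**Figure D2:**
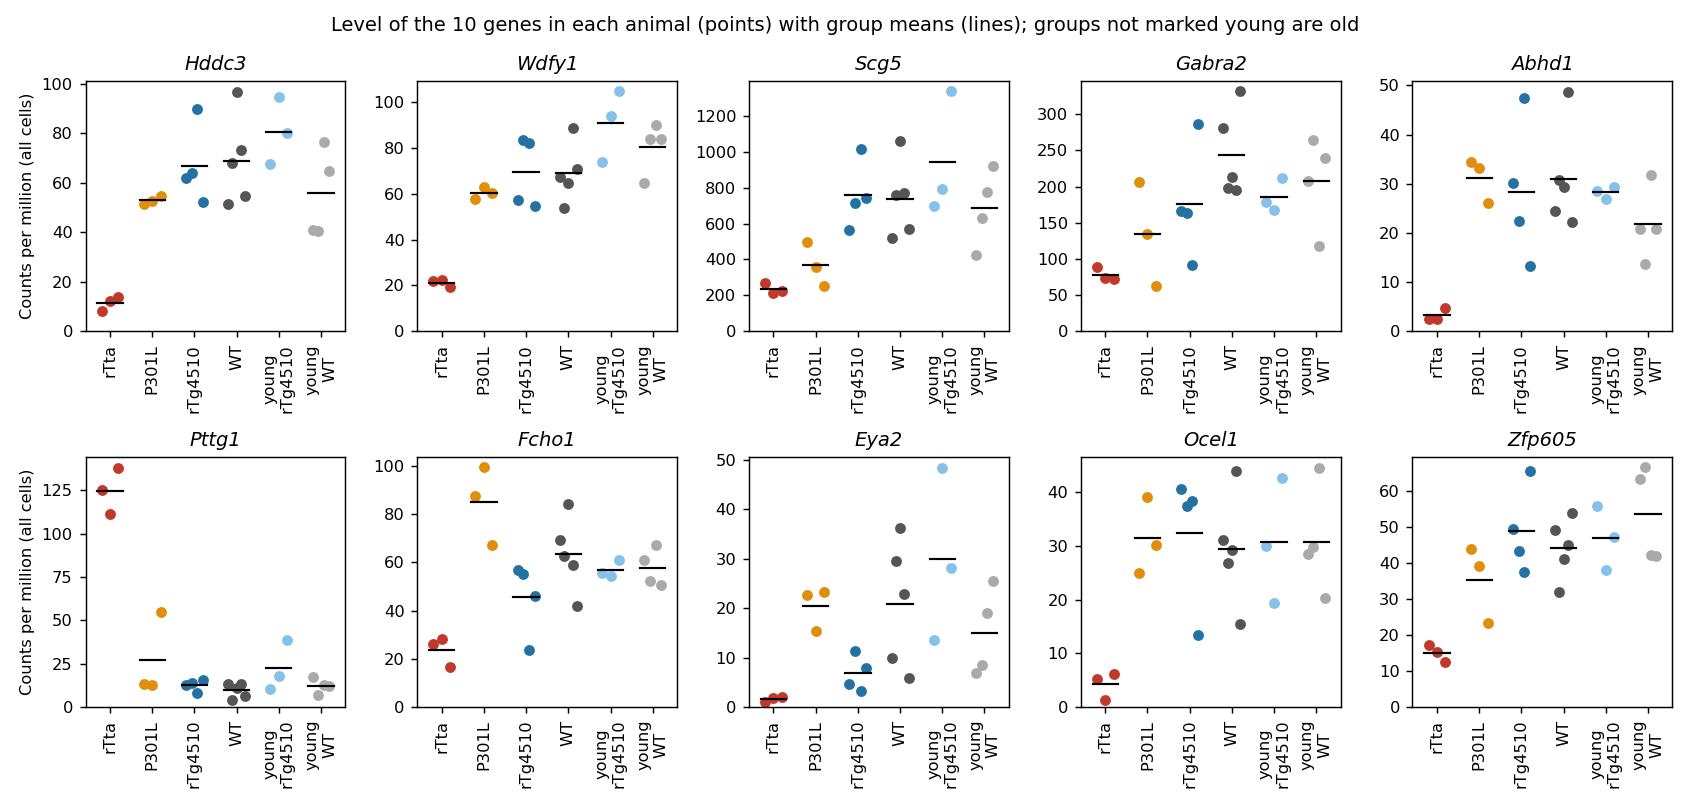
CPM over all kept cells (vertical axes, from 0) of each of the 10 genes in each of the 22 animals, 1 point an animal, with the group mean as a line. The 3 rTta animals lie at 112 to 138 CPM for Pttg1 and at 8.36 to 13.8 CPM for Hddc3, apart from every other animal.

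Cells were clustered without the 10 genes, and clusters were named from marker genes. Between rTta and old WT, 9 classes had at least 2 animals a group with 20 cells or more. The counts below are sums over a group's animals, their intervals are exact 95% intervals of counting error alone, and a sum of 0 was replaced with 3 counts, the most it allows, to give a bound. Every rTta animal was below every old WT animal for 1.9% of all genes tested in excitatory neurons, 2.62% in the class named from pan-neuronal markers, 5.25% in interneurons, 2.1% in astrocytes, 2.94% in oligodendrocytes, 1.76% in their precursors, 4.67% in microglia, 3.31% in endothelial cells and 6.69% in mural cells. In the same order, every rTta animal was above for 3.42%, 3.09%, 4.65%, 2.95%, 3.74%, 2.46%, 4.99%, 5.27% and 9.75% of all genes. Scg5 had every rTta animal below every old WT animal in 9 of the 9 classes, Hddc3 and Gabra2 in 7, Abhd1 in 5, Wdfy1 in 4, Ocel1 and Zfp605 in 3, Fcho1 in 2 and Eya2 in 1. Pttg1 had every rTta animal above every old WT animal in 8 of 9, the exception being interneurons.

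Pttg1 was near the counting floor in most classes of old WT animals and was counted in all 9 classes of rTta animals. The part of free RNA in these counts was not tested. Excitatory neurons held 92 Pttg1 counts (77.8 CPM) in the 3 rTta animals, against 3 counts (1.79 CPM) in the 5 old WT animals. Astrocytes held 110 counts (203 CPM) in rTta, against 1 count (1.19 CPM) in old WT animals. In mural cells 29 counts in rTta animals stood against 0 in old WT animals, which makes the level at least 7.86-fold higher. Old WT animals had 16 Pttg1 counts in microglia (38.6 ± 11.1 CPM, SD, n = 5), 16 in interneurons (29.3 ± 23.1 CPM, SD, n = 4) and 20 in oligodendrocytes (16.4 ± 7.68 CPM, SD, n = 5). The ratio of rTta to old WT was 2.86 (interval 1.59 to 5.41) in microglia and 3.94 (2.02 to 7.90) in interneurons, against 43.6 (14.4 to 215) in excitatory neurons. In oligodendrocytes it was 10.1 (6.24 to 17.1), with 118 counts in rTta and 20 in old WT animals.

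Fcho1 and Eya2 were highest in oligodendrocytes (218 ± 34.4 and 93.5 ± 38.7 CPM in old WT animals, SD, n = 5). In that class Fcho1 had 15.6, 0 and 4.92 CPM in rTta animals, 325, 390 and 225 CPM in P301L animals, 233, 253, 183 and 155 CPM in old rTg4510 animals and 249.65, 207, 216, 249.41 and 167 CPM in old WT animals. Summed, that was 4 counts in rTta and 244 in old WT animals, a ratio of 0.0280 (interval 0.0076 to 0.0727). In excitatory neurons Fcho1 had 46 counts in rTta and 70 in old WT animals, a ratio of 0.934 (0.629 to 1.37), and in interneurons 8 and 21 counts, a ratio of 0.960 (0.368 to 2.26). Every rTta animal was below every old WT animal for Fcho1 in oligodendrocytes and astrocytes (1 and 11 counts), while the groups overlapped in the other 7 classes. Eya2 had 2 counts in the oligodendrocytes of rTta and 96 in those of old WT animals, a ratio of 0.0356 (0.0043 to 0.132). Its sums in the other 8 compared classes were 5 counts or fewer in both groups. Without the shared barcodes, the log2 difference of rTta from old WT was -4.92 ± 0.56 for Fcho1 in oligodendrocytes (with them -4.99 ± 0.57) and -0.20 ± 0.33 in excitatory neurons (with them -0.19 ± 0.33), and for Pttg1 3.38 ± 0.46 and 5.14 ± 0.71.

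Oligodendrocytes made up 10.3% to 11.8% of the kept cells in rTta animals, 15.5% to 17.0% in P301L animals and 6.76% to 27.7% in old WT animals. For Fcho1 the gap within oligodendrocytes was wider than over all cells, where the rTta mean was 0.372 of the old WT mean. For Eya2 the all-cell value was 0.0803, which lies inside its interval in oligodendrocytes (0.0043 to 0.132), so a wider gap is not shown. The all-cell values are ratios of animal means, while those in oligodendrocytes are ratios of summed counts.

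Abhd1 was highest in astrocytes. There it had 0, 0 and 1 counts in rTta animals, against 149, 59.9 and 102 CPM in P301L animals and 89.8, 90.7, 94.1, 116 and 82.8 CPM in old WT animals. The sums were 1 count in rTta and 80 counts in old WT animals, a ratio of 0.0194 (interval 0.0005 to 0.111). Without the shared barcodes P301L replicate 3 had 166 CPM there, and in oligodendrocytes it had 286 CPM of Fcho1. In endothelial cells Abhd1 had 0 counts in rTta and 9 in old WT animals, at least 3.05-fold lower. Preb, which overlaps Abhd1 on the opposite strand, differed by -0.03 ± 0.17 (log2) between rTta and old WT over all cells.

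Hddc3 was counted in every compared class of old WT animals and was lower in sum in all 9 classes of rTta animals. Interneurons held 0 counts in rTta and 40 in old WT animals, at least 5.29-fold lower. Oligodendrocytes had 15.6, 17.5 and 24.6 CPM in rTta animals, against 63.1, 89.5, 159.5, 89.95 and 52.2 CPM in old WT animals. For Wdfy1 the ratio of rTta to old WT was 0.0647 (interval 0.0076 to 0.247) in astrocytes, from 2 and 48 counts, and 0.433 (0.2245 to 0.801) in microglia, from 16 and 36 counts. These intervals overlap, and the difference between the classes was not tested. Ocel1 had 3 counts in rTta and 38 in old WT excitatory neurons, and Zfp605 had 31 and 82 counts there, ratios of 0.112 (0.0221 to 0.3535) and 0.537 (0.343 to 0.821).

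Gabra2 was highest in excitatory neurons, with 215, 144 and 116 CPM in rTta animals, 571, 240 and 215 CPM in P301L animals, 389, 360, 396 and 528 CPM in old rTg4510 animals and 586, 365, 525, 495 and 580 CPM in old WT animals. The rTta animals lay below all old WT animals. The highest rTta animal (215.2 CPM) and the lowest P301L animal, replicate 3 (214.6 CPM), lay side by side. Without the shared barcodes P301L replicate 3 stood at 316 CPM, above all 3 rTta animals. Scg5 was highest in interneurons, with 590, 539 and 548 CPM in rTta animals, against 1261 to 1723 CPM in old rTg4510 animals and 1380 to 2158 CPM in old WT animals. Only 1 P301L animal had 20 interneurons, with 942 CPM. The ratio of rTta to old WT was 0.354 (interval 0.288 to 0.431) in interneurons, 0.363 (0.318 to 0.413) in excitatory neurons, 0.451 (0.365 to 0.553) in oligodendrocytes and 0.110 (0.0570 to 0.196) in microglia. The 7 pan-neuronal markers summed to 1193 to 1478 CPM in rTta microglia, against 2421 to 7815 CPM in old WT microglia, and their part in the microglia ratio was not tested.

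**Figure D3:**
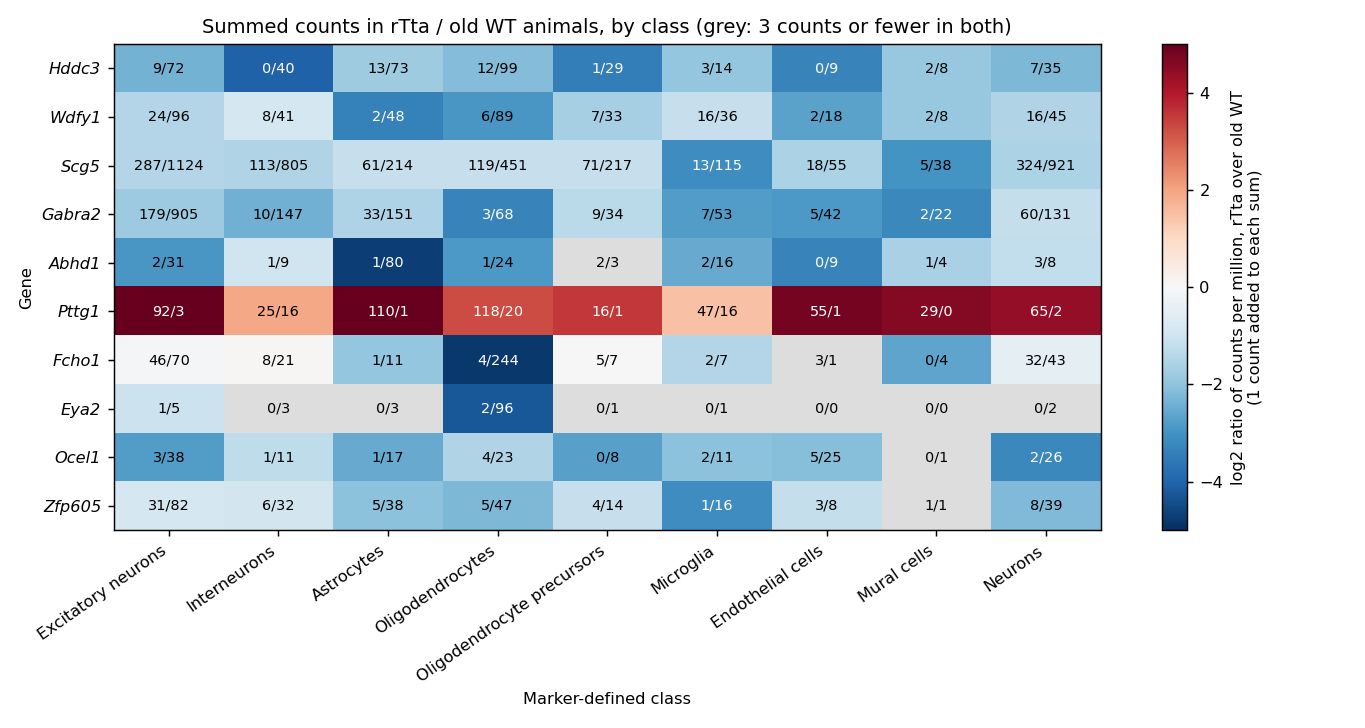
Log2 ratio (colour) of rTta to old WT summed CPM for the 10 genes (rows) in 9 classes (columns), with the summed counts of rTta and then old WT animals in each cell and 1 count added to each sum for the colour; grey marks 3 counts or fewer in both. Pttg1 is red in all 9 classes, and Fcho1 is dark blue in oligodendrocytes (4 and 244 counts) but pale in excitatory neurons (46 and 70).

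The contrasts without rTta animals were not used to choose the genes and were tested over all 12414 genes with edgeR's quasi-likelihood test and Benjamini-Hochberg adjustment. None of the 10 genes passed an adjusted p of 0.05 in sums over all cells in any of the 5 contrasts. Between old P301L and old WT animals 0 of the 10 passed, with 3 at an unadjusted p under 0.05, against a background of 0% of all genes (1839 of them at an unadjusted p under 0.05). Scg5 had the lowest adjusted p there, 0.138 (log2 difference -1.05 ± 0.32). DESeq2 called Scg5 (adjusted p = 0.0496) and no other member in that contrast, beside 189 genes (1.7%) in all. Gabra2 differed by -0.91 ± 0.32 (adjusted p = 0.182). Interneurons were 1.11% to 2.77% of cells in P301L and 3.45% to 6.21% in old WT animals, which did not overlap, and the median log2 difference was -0.68 for the GABA-A subunits and -0.58 for the granule and convertase genes, beside -0.03 for all genes. In 4 old WT animals interneurons held 805 Scg5 and 147 Gabra2 counts, and excitatory neurons of all 5 held 1124 and 905. Over all cells the 5 old WT animals held 5370 and 1914 counts. Excitatory neurons were 15.9% to 20.3% of cells in P301L and 14.2% to 32.5% in old WT animals. The part of either share in the Scg5 and Gabra2 differences was not tested. Pttg1 differed by 1.27 ± 0.49 (adjusted p = 0.221). For Pttg1 the shared barcodes held much of that difference, which was 0.61 ± 0.43 (adjusted p = 0.512) without them.

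Between old rTg4510 and old WT animals 0.185% of all 12414 genes passed, with 1052 at an unadjusted p under 0.05. Of the 10 genes 0 passed, with 1 at an unadjusted p under 0.05. Their log2 differences ran from -1.53 to 0.34. Eya2 stood lowest, at -1.53 ± 0.52 (adjusted p = 0.338), and inside oligodendrocytes, where it is counted, the difference was -0.64 ± 0.31 (adjusted p = 0.786). Oligodendrocytes were 6.88% to 12.9% of cells in old rTg4510 and 6.76% to 27.7% in old WT animals. Between young rTg4510 and young WT animals 0 of the 10 passed, with 0 at an unadjusted p under 0.05, against 0% of all genes (434 at an unadjusted p under 0.05 and 5 genes called by DESeq2). In that contrast the 10 genes ran from -0.15 to 0.98. The animal numbers of the labels fall into a lower and a higher range in this contrast. Eya2 had 13.6 CPM in rTg4510, against 6.95 and 8.60 CPM in WT animals, in the lower range, and 48.2 and 28.2 CPM in rTg4510, against 19.1 and 25.4 CPM in WT animals, in the higher one. Oligodendrocytes were 4.55% to 6.45% of cells in the lower and 20.3% to 30.7% in the higher range.

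Between old and young WT animals 0 of the 10 genes passed, with 0 at an unadjusted p under 0.05, against 0% of all genes (616 at an unadjusted p under 0.05 and 10 called by DESeq2), and their log2 differences ran from -0.23 to 0.52. Between old and young rTg4510 animals 0.161% of all 12414 genes passed, with 976 at an unadjusted p under 0.05. Of the 10 genes 0 passed, with 1 at an unadjusted p under 0.05. That was Eya2, with 4.69, 11.4, 3.34 and 7.84 CPM in old rTg4510 animals, against 13.6, 48.2 and 28.2 CPM in young rTg4510 animals. Oligodendrocytes were 6.88% to 12.9% of cells in old rTg4510 animals, against 5.96%, 30.7% and 22.6% in young rTg4510 replicates 1, 2 and 3, and their part in the difference was not tested. Its log2 difference was -2.11 ± 0.55 (adjusted p = 0.12), DESeq2 called it (adjusted p = 0.0263), and without young rTg4510 replicate 1 edgeR did too (adjusted p = 0.03225). In oligodendrocytes alone it was -0.995 ± 0.32 (adjusted p = 0.0938), with 32.6 to 71.5 CPM in old and 88.7 to 136 CPM in young rTg4510 animals. The difference between ages in the contrast of rTg4510 with WT was -2.51 ± 0.73 for Eya2 (interaction term, adjusted p = 0.9999), and no gene passed in that test.

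**Figure D4:**
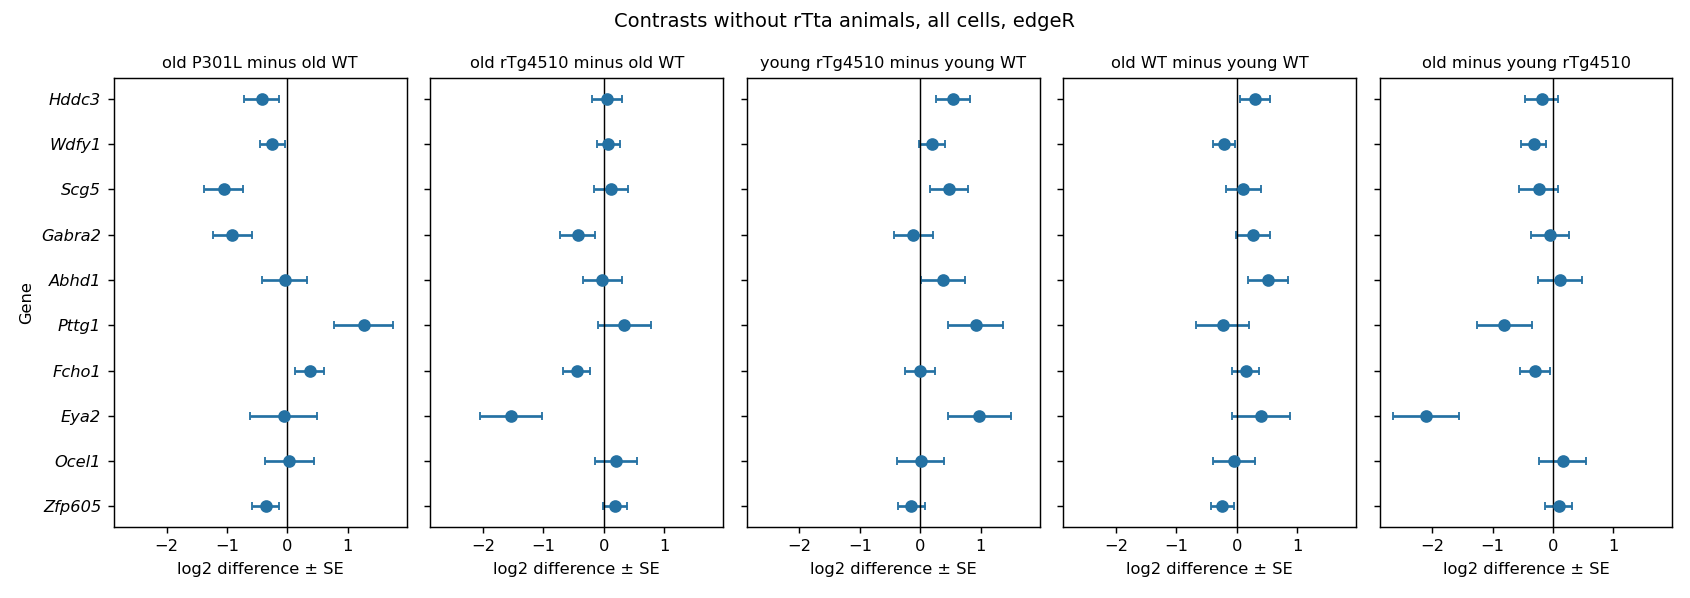
Log2 differences over all cells (horizontal axes, points) with their standard errors (bars) for the 10 genes in the 5 contrasts without rTta animals, from edgeR. None passed an adjusted p of 0.05; Eya2 stands lowest in old against young rTg4510 animals, at -2.11 ± 0.55.

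Within the classes and 1 unnamed cluster, 265 tests of a member were possible in these 5 contrasts and 4 passed an adjusted p of 0.05. They were 2 of 45 for P301L against old WT (0.738% of all tests of a gene in a class), 0 of 55 for old rTg4510 against old WT (0.537%), 0 of 55 for young rTg4510 against young WT (0.18%), 2 of 55 for old against young WT (0.368%) and 0 of 55 for old against young rTg4510 (0.283%). Scg5 was lower in the microglia of P301L than of old WT animals by a log2 difference of -3.22 ± 0.60 (edgeR, adjusted p = 0.00209). It had 4, 3 and 3 counts (36.4, 17.4 and 32.3 CPM) in P301L animals, against 22, 11, 9, 67 and 6 counts (131, 360, 255, 531 and 90.2 CPM) in old WT animals. The rTta animals had 31.2, 26.2 and 32.1 CPM in that class. Gabra2 there had 45.5, 40.6 and 0 CPM in P301L animals, against 119, 0, 170, 150 and 120 CPM in old WT animals (log2 difference -1.87 ± 0.59, edgeR adjusted p = 0.04745), and 0.0596 without the shared barcodes. In that contrast 5.77% of all genes tested in microglia passed. The 7 pan-neuronal markers, all of them counted in microglia of both groups, summed to 452 to 883 CPM in P301L, 1193 to 1478 CPM in rTta and 2421 to 7815 CPM in old WT microglia. The excitatory neuron list summed to 455 to 959 CPM in P301L microglia, with C1ql2 and Spink8 at 0, and to 1446 to 2095 CPM in old WT microglia, with all 10 counted. The part that neuronal RNA in the microglia barcodes has in these 2 differences was not tested.

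In oligodendrocytes, Pttg1 was higher in old than in young WT animals by 3.21 ± 0.73 (log2, edgeR adjusted p = 0.00681). The counts behind it were few: 8, 1, 4, 6 and 1 in old WT animals (6.89 to 24.5 CPM), against 1, 0, 1 and 1 in young WT animals (0 to 10.6 CPM), and the ranges overlapped. Without young WT replicate 3 the adjusted p was 0.0630. Scg5 in the same class had 301.3, 523, 457, 532 and 355 CPM in old WT animals, against 128, 145, 224 and 329 CPM in young WT animals (log2 difference 0.92 ± 0.25, edgeR adjusted p = 0.03115), and it missed the threshold in 7 of 14 alternatives. Here 3.1% of all genes passed. The pan-neuronal markers summed to 888 to 2997 CPM in old WT and 1115 to 1441 CPM in young WT oligodendrocytes, the excitatory neuron list to 574 to 1439 and 298 to 664 CPM, and their part in the Scg5 difference was not tested. No member passed in any class between rTg4510 and WT at either age (edgeR). At each age 4 of 55 tests of a member were at an unadjusted p under 0.05. Over all genes and classes, 3783 of 48400 tests were so at the old age and 3256 of 48400 at the young age.

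Genes next to the 10 on the chromosome were also compared between rTta and old WT animals. Among the 100 tested neighbours, 5 on either side of each gene, 0 passed an adjusted p of 0.05, against 0.201% of all genes. A count of 0 is near that share and does not show that the neighbours were unchanged. The log2 differences of the neighbours had a median of -0.09, beside -0.04 for all genes. Among the 4 nearest on either side they ran from -1.79 (Cox7b2) to 1.195 (Arhgap11a). Cox7b2, next to Gabra2, stood at -1.79 ± 0.78 (adjusted p = 0.622) with 1.04 CPM in rTta and 3.89 CPM in old WT animals. In the stretch of chromosome 8 between Ocel1 and Fcho1, Nr2f6 next to Ocel1 differed by -0.32 ± 0.35 and Unc13a next to Fcho1 by 0.25 ± 0.37.

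**Figure D5:**
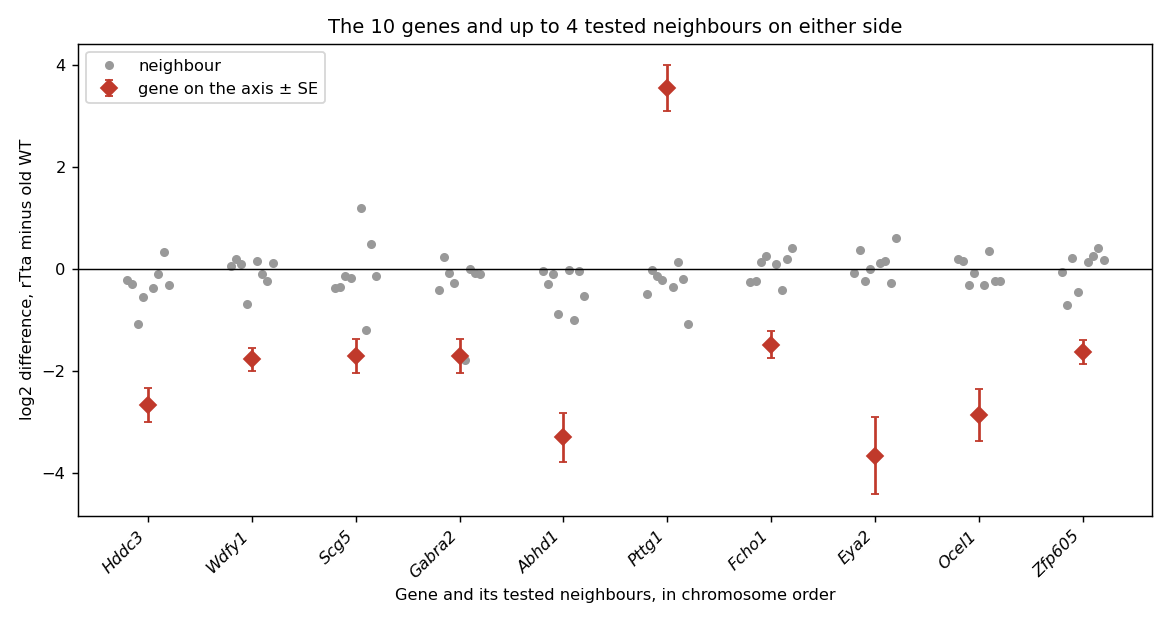
Log2 difference of rTta from old WT over all cells (vertical axis) for the 10 genes (diamonds, bars SE) and the 4 nearest tested neighbours on either side of each (points, in chromosome order). The 10 genes lie at -1.49 or lower, or at 3.55 (Pttg1), while the neighbours run from -1.79 (Cox7b2) to 1.195 (Arhgap11a).

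Partners and relatives of the 10 genes, and genes at the transgene insertion sites, were looked at in 11 lists with 116 genes, of which 99 were tested. Between rTta and old WT, 0 of them were called higher and 1 lower, beside 0.201% of all genes called. The 1 was Wdr60 (-1.66 ± 0.29, edgeR adjusted p = 0.0120), from the list of genes at the transactivator insertion. The 13 tested GABA-A receptor subunits had a median log2 difference of -0.08, the 12 granule and convertase genes that work with Scg5 -0.07, the 18 clathrin adaptor genes -0.01 and the 10 cohesin and separase genes 0.03, beside -0.04 for all genes. None of these passed. The median was -1.10 for the 4 tested genes at the transactivator insertion, -0.29 for 5 relatives of Ocel1, -0.19 for 8 relatives of Hddc3 and between -0.07 and 0.27 in the other 4 lists. Between rTta and P301L it was 0.64 for the GABA-A subunits and 0.66 for the granule and convertase genes, beside -0.02 for all genes, whereas Scg5 and Gabra2 were at -0.67 and -0.79. Between rTta and old rTg4510, Hddc2, an HD-domain relative of Hddc3, was the only listed gene called, and was lower (-1.47 ± 0.32, edgeR adjusted p = 0.0423). Of all genes 0.346% were called there. In the 5 contrasts without rTta animals 0 of the 99 genes passed in either direction, where no more than 0.185% of all genes did.

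The genes most like the 10 across animals were found by the Pearson correlation of log2 (CPM + 1) over the 22 animals, among 8244 genes; the points include the 3 rTta animals, and no likeness without them was computed. Psmc3ip, a recombination cofactor, was among the 3 most alike for Hddc3 (r = 0.90), Wdfy1 (0.90), Scg5 (0.87), Abhd1 (0.84) and Ocel1 (0.79), with a mean of 7.63 CPM in rTta and 49.9 CPM in old WT animals. Emc9 was most alike to Ocel1 (0.88), Adi1 to Eya2 (0.86), Fam20b to Zfp605 (0.86), Bag1 to Scg5 (0.87), Fbll1 to Gabra2 (0.84) and Dpy19l1 to Fcho1 (0.86). For Pttg1 they were Slc35a5 (0.88), Rpl3 (0.81) and Sft2d1 (0.80). Rpl3, a ribosomal protein gene, averaged 243 CPM in rTta and 4.49 CPM in old WT animals; genes of this kind have near-identical pseudogene copies, so its counts are uncertain. Among the 10 genes themselves, the correlation of Abhd1 with Zfp605 was 0.65 over 22 animals and -0.52 over the 19 animals other than rTta. That of Gabra2 with Zfp605 was 0.82 and 0.72.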

How the data were processed

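The authors deposited 1 table of whole-number counts, 13685 genes by 30500 cell barcodes, with the animal in each barcode's name. Per the submitters' processing notes, reads were demultiplexed with bcl2fastq 2.18.0.12 and aligned with STAR, given as version 2.2, to mm10. The counting tool, the annotation, any filter and whether molecular identifiers were collapsed are not given in the sources used here. The 10 genes, the gene lists and the tests were chosen with earlier results of these data known.

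Barcodes with at least 300 counts were kept. Clustering used scanpy 1.11.5 without the 10 genes (2000 variable genes, 40 principal components, 15 neighbours, Leiden at resolution 1) and gave 36 clusters. A cluster was named when at least 3 markers stood 2-fold above the other clusters after 20 CPM was added; 15.2% of cells stayed unnamed. No doublet caller was run. Counts were summed per animal, over all cells and per class with at least 20 cells, and tested with edgeR 4.0.16 (TMM scaling, filterByExpr, robust quasi-likelihood) in R 4.3.3, 1 fit over all groups. DESeq2 1.42.0 was an alternative. The fits were tested on simulated data. Labels give each animal a number of its own; the p-values measure the spread between animals. Intervals and floors cover counting error only. The genes named were all 10 members, the 3 genes most like each, neighbours and list genes past adjusted p 0.05, and Wdr60 and Mapt as label checks; other neighbours named were chosen after their values were seen.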

Additional observations from a re-analysis of the deposited data

Results flagged for a closer look

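Of 30 groups of 4 or 5 animals examined (10 genes in old rTg4510, old WT and young WT animals), 1 held an animal far from the others. Ocel1 over all cells stood at 13.4 CPM in old rTg4510 replicate 4, while the other 3 old rTg4510 animals had 37.5 to 40.6 CPM. Chance alone puts about 1 in 20 such groups past this limit. The value was still above the 6.2005 CPM of the highest rTta animal.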

How the results depend on the processing

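Counts of the 10 genes called over all cells were 0 in all 5 contrasts without rTta animals. With DESeq2 the count was 1 for old P301L against old WT (Scg5) and 1 for old against young rTg4510 (Eya2), and leaving out 1 animal gave 0 to 1 for old against young rTg4510. All other alternatives run gave 0, and no result reversed. Of 443 alternative values of the rTta differences, 432 moved by less than the spread between replicates and 11 by more, all 11 of them in excitatory neurons alone. There the rTta difference from old WT was 5.15 for Pttg1, -0.19 for Fcho1 and -0.87 for Zfp605. The share of all genes called was higher with DESeq2 than with edgeR in each contrast: 0.406% against 0.201% for rTta and old WT, 0.633% against 0.129% for rTta and P301L, 0.883% against 0.346% for rTta and old rTg4510, 1.7% against 0% for P301L and old WT, 0.819% against 0.185% for old rTg4510 and old WT, 0.0398% against 0% for young rTg4510 and young WT, 0.0795% against 0% for old and young WT, and 1.26% against 0.161% for old and young rTg4510; the cause was not tested. Leaving out the shared barcodes was chosen after seeing the data. In microglia, Scg5 in P301L against old WT passed in 13 of 13 alternatives and Gabra2 in 4 of 13 (adjusted p up to 0.151). In oligodendrocytes of old against young WT animals, Pttg1 passed in 12 of 13 alternatives and Scg5 in 7 of 14. With 10 neighbours on either side, 0 of 195 were called between rTta and old WT, beside 0.201% of all genes. No paired analysis was possible because no animal number occurs in more than 1 group; with the range of animal numbers as a term, 0 of the 10 genes were called for old rTg4510 against old WT and 0 for young rTg4510 against young WT. Members at 0 to 3 counts in a class are at the limit that depth allows.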
